A study of Gossypium hirsutum with 15 samples.

Results

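A set of 95 cDNA probes gave more signal in TM-1 fibers than in those of *im* at 16 days post anthesis (DPA) and mean line ratios near 0 at the other 4 stages examined. These 95 probes were chosen by their measured line ratios, from 12092 probes with enough signal at every stage and 29184 cDNA probes on the array. A probe was counted as having enough signal where at least 1 dye reached 400 units above background on at least 2 of the 3 arrays of each stage. Among these, a probe was taken when its mean log2 ratio of TM-1 over *im* was 1 or higher at 16 DPA, which is 2-fold, and lay between -0.5 and 0.5 at 13, 19, 22 and 25 DPA. The line ratios are therefore given below as a description of the selected probes, with no test.

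A cotton fiber is a single cell that grows out of the seed coat. It first elongates with a thin primary wall and then passes through a transition stage, after which it lays down a thick secondary cell wall (SCW) of nearly pure cellulose. The *im* (immature fiber) mutant is a line of upland cotton, *Gossypium hirsutum*, with fine, thin-walled fibers, and TM-1 is the wild-type accession to which it is near-isogenic.

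Both lines were grown in the field, and RNA of their fibers was compared at 5 stages, every 3 days from 13 to 25 DPA. Each of 15 cDNA arrays took RNA of TM-1 in one dye and of *im* in the other, and each stage had 3 arrays. No treatment was applied and the lines were the only genotypes. The sources differ on the material, since the sample labels name fibers and the series record names ovules bearing fibers, and on whether the arrays of a stage are 3 separate pools of plants or include a dye swap of the same RNA. If a swap reused an extract, the spread between arrays is partly technical. The probes carry clone positions and no gene names here, so the fiber identity of the samples was not checked with marker genes, and less RNA per cell and fewer cells of a kind cannot be told apart in such bulk samples.

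The direction of every ratio rests on the order of the lines in the sample labels. The dye labels put *im* in Cy5 on all 15 arrays, but replicate 2 of each stage correlated with replicates 1 and 3 at -0.75 to -0.39 over the measured probes, while replicates 1 and 3 correlated with each other at 0.57 to 0.80. Replicate 2 was taken as the dye swap and turned. The direction is not settled by this. The material labels exchange the lines at 16 and 22 DPA, and the dyes given in the study's methods exchange them at every stage. On either of these readings the same 95 probes would be higher in *im* at 16 DPA, with a median log2 ratio of -1.13 in place of 1.13. Directions below follow the source names.

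The median of the 95 mean ratios was 0.21 at 13 DPA, 1.13 at 16 DPA, 0.10 at 19 DPA, -0.04 at 22 DPA and -0.01 at 25 DPA. At 16 DPA the mean ratios ran from 1.00 to 2.03, and the median of 1.13 corresponds to a 2.18-fold difference. By array, the median ratio of the probes at 16 DPA was 1.27, 1.24 and 0.99 on replicates 1, 2 and 3. The medians of the 12 other arrays lay between -0.29 and 0.26, so the 3 arrays of 16 DPA stood above all others. Over the 12092 probes the median ratio was between -0.03 and 0.05 at every stage. The typical spread of a probe over its 3 arrays at 16 DPA was an SD of 0.25.

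**Figure D1:**
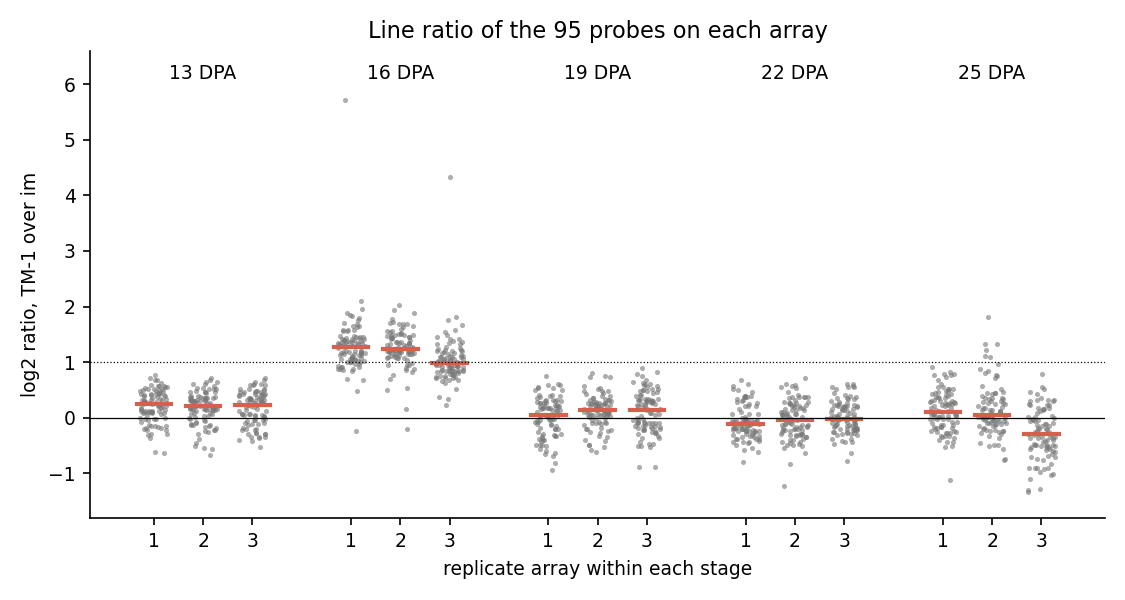
Log2 ratio of TM-1 over im (vertical axis) of each of the 95 probes on each of the 15 arrays (horizontal axis, replicates 1 to 3 within each stage). Points are probes, thick bars are array medians and the dotted line marks the ratio of 1 that the selection used. The array medians at 16 DPA are 1.27, 1.24 and 0.99, and single points at 5.72 and 4.33 stand far above the rest.

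Most of the probes were high on every measured array of 16 DPA. All 3 of these arrays were measured for 93 of the 95 probes, and 2 of them for the others. The ratio was 0.5 or higher on every measured array for 89 of the 95 probes and 1 or higher on all 3 for 29 probes. In 80 probes the lowest ratio at 16 DPA was above the highest ratio on any array of the other stages, where 6.62% of the 12092 probes showed this pattern. Among the probes called higher in TM-1 at 16 DPA by limma on ratios recomputed from the intensities (adjusted p under 0.05 and at least 2-fold), which were 4.10% of 16647, there were 88 of the 95. The counts of 89, 29, 80 and 88 follow from the selection. They describe the selected probes and are no test of them, and nothing further is read from them. For the 89 and the 29 the share over the 12092 probes was not counted.

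The selection picked a minority of the probes that were higher in TM-1 at 16 DPA. Of the 12092 probes, 534 had a mean ratio of 1 or higher at 16 DPA, and the 95 make up 17.8% of those. Among the 534, the mean ratio was 0.5 or more in favor of TM-1 in 184 probes at 13 DPA, 171 at 19 DPA, 94 at 22 DPA and 89 at 25 DPA. A difference of 0.5 or more in favor of *im* was found in 56 probes at 13 DPA, 58 at 19 DPA, 53 at 22 DPA and 98 at 25 DPA. With the lines exchanged at 16 and 22 DPA, as in the material labels, the 184 and 171 probes would be opposite in sign to their difference at 16 DPA and the 56 and 58 would have its sign. The same rule applied to the other stages and to the opposite sign gave smaller sets. It selected 52 probes higher in *im* only at 16 DPA. For 13, 19, 22 and 25 DPA it selected 0, 18, 16 and 13 probes higher in TM-1, and 8, 63, 11 and 23 probes higher in *im*.

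The edge of the set is not a break in the data. The probes just inside the threshold were 384P72_P_17, 384P60_G_05 and 384P33_N_15, whose mean ratios at 16 DPA were 1.002, 1.005 and 1.009. The probes just outside, 384P08_I_19, 384P20_E_08 and 384P69_H_16, had mean ratios of 0.9998, 0.9986 and 0.9975. Between 1 and 1.1 lay 37 of the 95 probes, and a further 63 probes met the rule at the other stages with a mean ratio between 0.9 and 1. Membership also depended on single arrays, since the rule applied to 2 arrays per stage selected 69, 72 and 104 probes without replicate 1, 2 and 3, of which 54, 47 and 50 were among the 95.

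The 8 probes with the highest mean ratio at 16 DPA were 384P13_B_21, 384P50_B_07, 384P22_A_21, 384P53_D_21, 384P58_L_06, 384P29_H_24, 384P29_M_18 and 384P67_F_05. The first of them rests on 1 array. Probe 384P13_B_21 had ratios of 5.72, 0.15 and 0.23 on replicates 1, 2 and 3 of 16 DPA, a mean of 2.03 ± 3.19 (SD, n = 3). Its TM-1 signal above background was 26417 units on replicate 1 and 782 and 1067 units on replicates 2 and 3, while its *im* signal was 590, 706 and 963 units. The other 2 arrays thus showed no line difference near the threshold.

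A second probe of this kind, 384P68_H_20, was singled out after its values were seen. Its ratios at 16 DPA were -0.24, -0.20 and 4.33, a mean of 1.30 ± 2.63 (SD, n = 3). On replicate 3 its *im* signal was 375 units, below the faint limit, against 2564 and 4306 units on the other arrays. Without replicate 3 its mean ratio was -0.22, and it did not meet the rule. These were the only 2 of the 95 probes with a ratio under 0.5 on 2 of the 3 arrays of 16 DPA.

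The next probes in the order were even across arrays. Probe 384P50_B_07 had ratios of 1.71, 1.78 and 1.75 at 16 DPA, a mean of 1.75 ± 0.03 (SD, n = 3) and the smallest spread of the 95. Its *im* signal was 1740, 2148 and 1805 units and its TM-1 signal 4892, 7785 and 5488 units, so no array was near the faint limit. At the other stages it lay between -0.08 and 0.69, with 0.44, 0.57 and 0.45 at 13 DPA and values near 0 at 25 DPA. TM-1 was thus slightly above *im* on every array up to 22 DPA and well above it only at 16 DPA.

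Probe 384P22_A_21 had ratios of 2.10, 1.69 and 1.42 at 16 DPA. At 19 DPA the same probe was at -0.94, -0.40 and -0.00, so its ratio changed sign or fell to 0 within 1 stage. Probe 384P53_D_21 had ratios of 1.83, 1.68 and 1.66 at 16 DPA and of -0.49, -0.55 and -0.32 at 22 DPA. Its arrays of 16 DPA lay above all of its other arrays. Probe 384P58_L_06 had ratios of 1.79, 1.88 and 1.45 at 16 DPA, but at 19 DPA its 3 arrays read 0.58, -0.50 and 0.51 and did not point the same way. Probe 384P29_H_24 had ratios of 1.65, 1.56 and 1.82, probe 384P29_M_18 of 1.63, 1.73 and 1.25, and probe 384P67_F_05 of 1.37, 1.94 and 1.19. All 3 were above 1 on each array of 16 DPA, and 384P29_H_24 had *im* below the faint limit, at 266 units, on replicate 1.

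The *im* signal of some probes was too dim to size the difference. At 16 DPA *im* was under 400 units on all 3 arrays for 3 probes, on 1 or 2 arrays for 15 probes and on none for 77 probes. For the 3 dim probes only a lower limit holds, set by the dimmest *im* signal of at least 400 units on each array. TM-1 was at least 1.65-fold higher for 384P09_O_22 and at least 1.60-fold higher for 384P65_B_18. For 384P11_B_16 it was at least 2.02-fold higher on replicates 1 and 3. On replicate 2 of that probe both dyes were faint, at 261 units for TM-1 and 249 for *im*, and this array is not in the limit. TM-1 itself was under 400 units on an array of 16 DPA in 2 probes.

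Each line's level was then followed through the stages. A level here is the normalized log2 intensity of a line on an array, and it is given relative to the median of the 12092 probes in that line on that array. Because a line's level is made from the ratio that selected the probes, these values are also a description with no test.

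In TM-1 the median level of the 95 probes was -0.09, -0.24 and -0.10 at 13 DPA on replicates 1, 2 and 3. At 16 DPA it was 0.75, 0.81 and 0.43, and at 19 DPA 0.71, 0.80 and 0.76. The probes were thus near the typical probe at 13 DPA and above it from 16 DPA onward, and the ranges of 16 and 19 DPA overlapped. In *im* the median level was -0.35, -0.39 and -0.40 at 13 DPA and -0.41, -0.33 and -0.49 at 16 DPA. It was 0.43, 0.70 and 0.57 at 19 DPA. The step from below to above the typical probe thus fell between 13 and 16 DPA in TM-1 and between 16 and 19 DPA in *im*. At 22 and 25 DPA the array medians of both lines lay between 0.35 and 0.65, with no gap between the lines. With the lines exchanged at 16 DPA, the early step would be that of *im*.

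**Figure D2:**
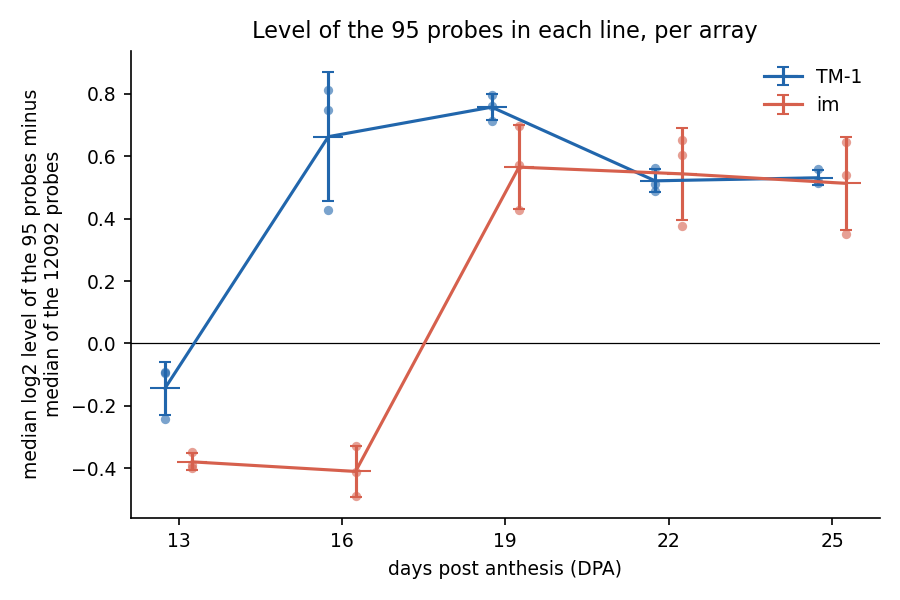
Median log2 level of the 95 probes minus the median of the 12092 probes (vertical axis) against stage in DPA (horizontal axis) for TM-1 and im. Points are arrays, and the joined marks with bars are the mean and SD of 3 arrays. TM-1 stood at 0.66 and im at -0.41 on average at 16 DPA, while both lines were above 0 at 19, 22 and 25 DPA.

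Probe by probe, the change from 13 to 16 DPA was mostly one of TM-1, which the rule itself favors. TM-1 was above its 13 DPA level at 16 DPA in 91 of the 95 probes, and by 0.5 or more in 64. Of the 12092 probes, 9.63% were higher by as much, and the share above 0 was not counted. The median change in TM-1 was 0.86, against -0.15 over the 12092 probes. In *im* the median change was -0.25, against -0.15 over the 12092 probes. There *im* was at least 0.5 lower in 26 probes and at least 0.5 higher in 6, against 19.7% and 5.73% of the 12092 probes. The 6 higher probes are thus near the share of all probes. In 52 probes TM-1 was at least 0.5 higher while *im* stayed within 0.5 of its 13 DPA level. A smaller group of 19 probes had the other form, with TM-1 within 0.5 of its level and *im* lower by at least 0.5. In 6 probes TM-1 was higher and *im* lower by at least 0.5, and in 6 both were higher. The share of the 12092 probes with each of these combinations was not counted.

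From 16 to 19 DPA the larger change was mostly in *im*, which the rule itself favors. The median change was 0.88 in *im* and -0.18 in TM-1, against -0.17 and -0.22 over the 12092 probes. *im* was at least 0.5 higher at 19 DPA in 68 probes, against 18.7% of the 12092 probes, and 45 of these had TM-1 within 0.5 of its 16 DPA level. In 15 probes both lines were at least 0.5 higher. TM-1 was at least 0.5 lower at 19 DPA in 32 probes, and in 20 of these *im* stayed within 0.5. The 32 probes are close to the 33.1% of the 12092 probes in which TM-1 was lower by as much. For the combinations of both lines, the share of the 12092 probes was not counted.

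**Figure D3:**
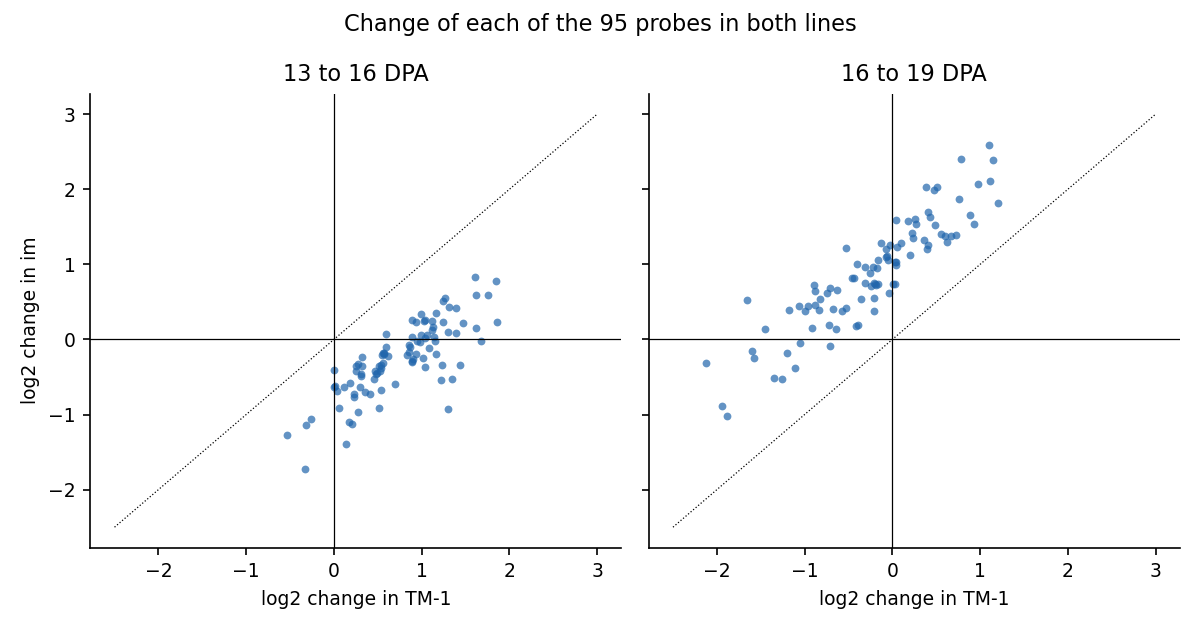
Log2 change of each of the 95 probes in TM-1 (horizontal axis) and in im (vertical axis), from 13 to 16 DPA (left) and from 16 to 19 DPA (right); the dotted line marks equal change. The median changes are 0.86 in TM-1 and -0.25 in im on the left, and -0.18 in TM-1 and 0.88 in im on the right, and the selection itself places points below the line on the left and above it on the right.

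Single probes with high ratios and the brightest probe took different courses. From 13 to 16 DPA, 384P53_D_21 and 384P22_A_21 had TM-1 at least 0.5 higher and *im* within 0.5, while 384P69_K_17 had the other form. Probe 384P53_D_21 had TM-1 levels of 9.22, 11.08 and 12.18 at 13, 16 and 19 DPA and *im* levels of 9.13, 9.36 and 11.95, so that *im* at 16 DPA was still near its own level of 13 DPA. Probe 384P22_A_21 had TM-1 levels of 10.08, 11.51 and 9.86 and *im* levels of 10.12, 9.78 and 10.30. There TM-1 was high at 16 DPA alone, and *im* changed by -0.34 from 13 to 16 DPA and by 0.52 from 16 to 19 DPA. Probe 384P69_K_17, the brightest of the 95, had TM-1 levels of 15.20, 14.87 and 16.02 and *im* levels of 15.24, 13.52 and 15.90. In this probe 16 DPA was the lowest stage of both lines, and *im* was the lower of them, while on most later arrays a dye was saturated.

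The mean level of both lines on an array does not depend on which dye held which line. The selection did not use the mean level itself, but its ratios and signal rule came from the same intensities. The spot of 384P13_B_21 with a ratio of 5.72 had a mean level of 11.93, against 9.45 and 9.73 on replicates 2 and 3 of 16 DPA. The mean levels, those of 16 DPA included, are thus not independent of the selection. They were tested between stages with limma across all probes measured, with p-values adjusted by the Benjamini-Hochberg method. From 13 to 16 DPA none of the 95 probes passed in either direction, where 0.179% of the 16216 probes tested rose and 0.148% fell. At an unadjusted p under 0.05, 15 of the 95 were higher and 1 was lower at 16 DPA. Of the 16216 probes tested, 1544 passed this limit in either direction. The median change of the 95 was 0.30, against -0.18 over all probes. Of the 95 changes, 66 were above 0, a share that was not counted over all probes.

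From 16 to 19 DPA 13 of the 95 probes rose and 1 fell, where 4.42% of the 13789 probes tested rose and 7.05% fell. The median change was 0.33, against -0.17 over all probes. With the arrays centred on the probes measured on all 15 arrays, an alternative added after seeing the data, 21 of the 95 rose and 0 fell, and over all probes the balance turned from 610 risers and 972 fallers to 1185 risers and 731 fallers. These calls depended on which replicates were used. Without replicate 1, 0 of the 95 passed, where 51 of the 12603 probes tested rose and 99 fell. Without replicate 2, 2 of the 95 rose, where 91 of 10482 rose and 210 fell. Without replicate 3, 18 passed, but 12 rose and 6 fell, where 972 of 10826 rose and 978 fell. The median change of the 95 without replicate 3 was 0.20, against -0.12 over all probes. When 19 DPA was represented by replicate 3 alone, 1 probe passed. Replicates 1 and 2 of 19 DPA had median Cy3 backgrounds of 972 and 797 units, while each of the other arrays had at most 519 units, and the part of this background in the calls was not tested.

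The stages on either side of 16 DPA were compared directly, a comparison added after the data were seen. The estimated changes were taken between the levels of 13 and 19 DPA. The arrays of 16 DPA still entered the normalization across arrays and the shared estimate of spread behind the SE and the calls. From 13 to 19 DPA 31 of the 95 probes rose and 2 fell, where 5.83% of the 14094 probes tested rose and 16.0% fell. The median change was 0.64, against -0.32 over all probes, and 75 of the 95 changes were above 0. Among the 12092 probes that met the signal rule, 4.80% rose and 16.0% fell. The risers made up 32.6% of the 95. Without replicate 1, 12 of the 95 passed and all rose, where 196 of the 12540 probes tested rose and 486 fell. Without replicate 2, 11 passed and all rose, where 203 of 10653 rose and 826 fell. Without replicate 3, 24 passed, of which 22 rose and 2 fell, where 962 of 11451 rose and 1797 fell. When 19 DPA was represented by replicate 3 alone, the median change of the 95 was 0.57, against -0.36 over all probes.

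**Figure D4:**
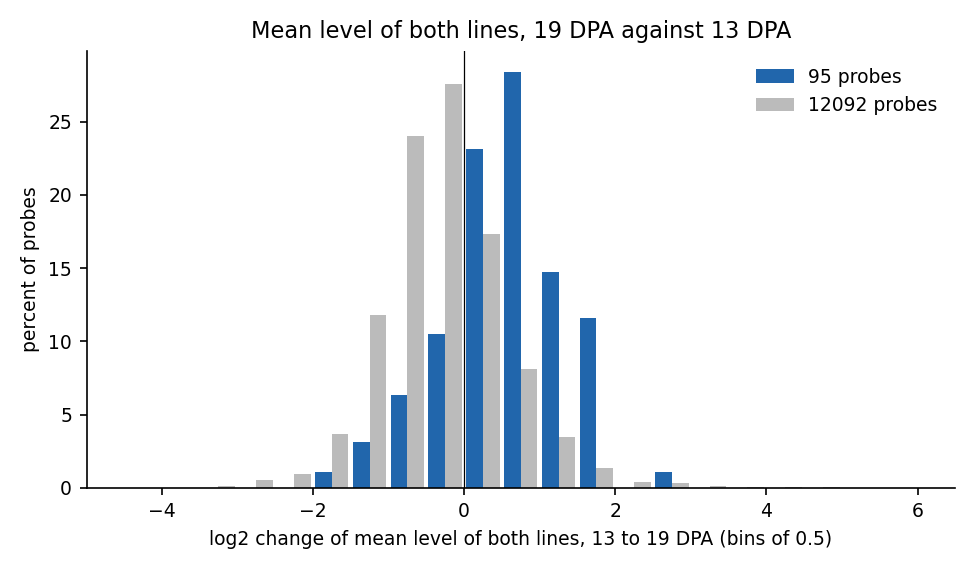
Distribution of the log2 change of the mean level of both lines from 13 to 19 DPA (horizontal axis, bins of 0.5) as percent of probes (vertical axis), for the 95 probes and for the 12092 probes with enough signal at every stage. The median is 0.64 for the 95 probes and -0.34 for the 12092 probes.

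The size of the rise depended on how the arrays were put on one scale, while its sign relative to the other probes did not. Between 16792 and 19272 probes were measured on the arrays of 13 DPA and between 14363 and 18417 on those of 19 DPA. When the arrays were centred as above, the median change of all probes from 13 to 19 DPA moved from -0.32 to 0.07 and that of the 95 probes from 0.64 to 1.01. The calls over all probes moved from 822 risers and 2259 fallers to 1848 risers and 1281 fallers, and those of the 95 probes to 50 risers and 0 fallers. Relative to the median of all probes, the 95 probes were 0.96 higher in the main setting and 0.83 to 1.03 higher over the settings tried. From 13 to 16 DPA the centred levels gave 4 risers among the 95, where 63 of the 16216 probes tested rose and 52 fell.

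Of the 8 probes with the highest ratios, 4 rose in mean level from 13 to 19 DPA. Probe 384P53_D_21 had mean levels of 8.84, 9.36 and 9.33 at 13 DPA and of 12.13, 12.61 and 11.46 at 19 DPA. The groups did not overlap, and the change was 2.89 ± 0.33 (SE; limma, adjusted p = 1.78e-05), or 7.42-fold, the largest of the 95. Probe 384P58_L_06 rose by 1.75 ± 0.30 (SE; limma, adjusted p = 0.000704) and probe 384P29_H_24 by 1.65 ± 0.39 (SE; limma, adjusted p = 0.00735). Probe 384P50_B_07 rose by 0.86 ± 0.26 (SE; limma, adjusted p = 0.0290). Its mean levels were 10.87, 10.50 and 10.57 at 13 DPA, and 11.25 to 11.72 at 16 DPA and 11.29 to 11.63 at 19 DPA, so its values of 16 DPA were already above those of 13 DPA, a difference of 0.85 that did not pass the test (limma, adjusted p = 0.230).

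Among the other risers, singled out after their values were seen, 384P02_H_21 had mean levels of 9.07 to 9.29 at 13 DPA. They were 9.85 to 10.31 at 16 DPA, then 11.01 to 11.25 at 19 DPA. These 3 stages did not overlap and stood in the order of time. Probe 384P73_P_03 had mean levels of 9.15 to 9.45 at 13 DPA and 10.90 to 11.68 at 19 DPA, a change of 1.93 ± 0.32 (SE; limma, adjusted p = 0.000513).

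The 2 probes that fell from 13 to 19 DPA were 384P16_N_15 and 384P17_J_14. Probe 384P16_N_15 had mean levels of 11.14, 10.42 and 10.62 at 13 DPA and 8.91, 9.49 and 9.27 at 19 DPA, a change of -1.50 ± 0.46 (SE; limma, adjusted p = 0.0294). It was back at 10.17 to 11.05 at 22 DPA. Probe 384P17_J_14 changed by -1.50 ± 0.51 (SE; limma, adjusted p = 0.0459), with 2 measured arrays at 19 DPA, at 9.01 and 10.61.

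From 19 to 22 DPA 4 of the 95 fell and 0 rose, where 4.32% of the 13118 probes tested fell and 5.84% rose, and the median change was 0.04. At an unadjusted p under 0.05, 11 of the 95 were lower and 6 higher. Of the 13118 probes tested, 3399 passed this limit in either direction, a larger share than among the 95. The 4 that fell were 384P60_G_05, 384P60_M_22, 384P56_K_23 and 384P18_E_13. The largest fall was that of 384P60_G_05, at -1.73 ± 0.46 (SE; limma, adjusted p = 0.0260). That probe had mean levels of 11.97 to 12.60 at 19 DPA and of 8.75 to 11.23 on all other arrays, so its peak was at 19 DPA. None of the 4 passed without replicate 1, without replicate 2 or with 19 DPA represented by replicate 3 alone. From 22 to 25 DPA none of the 95 passed, where 0.0420% of the 14291 probes tested rose and 0.266% fell. At an unadjusted p under 0.05, 4 of the 95 were higher and 4 lower, against 1479 of the 14291 probes in either direction.

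The 52 probes that were higher in *im* only at 16 DPA gave the opposite values in the same test. From 13 to 19 DPA their median change was -0.97, against -0.34 over the 12092 probes. Of the 52, 22 fell and none rose, where 16.0% of the 12092 probes fell. The difference between the sets was not tested. From 13 to 16 DPA and from 16 to 19 DPA their median changes were -0.45 and -0.46, against 0.30 and 0.33 in the 95 probes. Relative to the median of the 12092 probes, the 52 were at -0.62 from 13 to 19 DPA and the 95 at 0.98. From 13 to 16 and from 16 to 19 DPA these values were -0.30 and -0.27 for the 52, and 0.46 and 0.51 for the 95.

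The 6 brightest of the 95 probes by mean level over all stages were 384P69_K_17, 384P05_G_13, 384P28_G_20, 384P72_D_16, 384P23_A_10 and 384P63_P_04. Their levels were near the upper end of the scale, and 5 of the 95 probes were saturated in a dye on at least 1 array, all of them among these 6. On replicate 2 of 16 DPA TM-1 was saturated for 384P05_G_13, 384P23_A_10 and 384P72_D_16, so that their ratios of 0.94, 1.14 and 1.41 there are lower limits. Probe 384P05_G_13 had TM-1 signals of 64954, 65423 and 52514 units and *im* signals of 30484, 31487 and 29461 units at 16 DPA, with ratios of 1.42, 0.94 and 1.03. Probe 384P69_K_17 had ratios of 1.35, 1.49 and 1.02 at 16 DPA, where it was not saturated. Its mean level was 13.84, 13.93 and 14.81 at 16 DPA and 15.99, 15.99 and 15.89 at 19 DPA. Both dyes were saturated on replicates 1 and 2 of 19 DPA and on replicate 2 of 25 DPA, and a single dye was saturated on replicate 2 of 13 DPA and on 4 other arrays of 22 and 25 DPA. Its mean level at 19 DPA was thus at least 1.77 above that of 16 DPA on the log2 scale (limma, adjusted p = 0.000682), and its line ratios near 0 on the arrays with both dyes saturated do not measure the lines. Of the 6 brightest, 384P05_G_13 and 384P28_G_20 passed the test from 13 to 19 DPA, with rises of 0.76 ± 0.25 (SE; limma, adjusted p = 0.0360; TM-1 saturated on 1 array of 19 DPA) and 0.85 ± 0.26 (SE; limma, adjusted p = 0.0288).

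At 25 DPA the arrays did not show one line ratio for these bright probes. Probe 384P05_G_13 had ratios of 0.73, 1.21 and -0.98 on replicates 1, 2 and 3 of 25 DPA, and 384P23_A_10 had 0.78, 1.33 and -1.02. For 384P05_G_13 *im* was saturated on replicate 3. Their mean ratios met the limit of 0.5 because the arrays pointed in opposite directions. Of the 95 probes, 12 had a ratio of 0.5 or higher on one array and of -0.5 or lower on another at 25 DPA, compared with 2, 0, 1 and 1 probes at 13, 16, 19 and 22 DPA. Over the 12092 probes this was seen in 2.82% at 25 DPA and in 0.480% to 0.852% at the other stages. For these 12 probes the lines were thus not shown to be equal at 25 DPA, and the mean near 0 is an average of unlike arrays.

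The deviations of each probe from its stage means were compared between probes, over 15 arrays, for the 77 probes measured on every array. A Pearson correlation of 0.9 or higher was found for 23 of 2926 pairs, which is 0.786%, and for 0.0494% of all pairs among 8396 of the 12092 probes. These correlations share the same arrays and are given as a description. Linking the probes with such correlations gave a group of 10, a group of 3 and a pair. The group of 10 held 5 of the 6 brightest probes, all but 384P69_K_17, together with 384P62_E_05, 384P70_L_21, 384P72_O_09, 384P73_P_17 and 384P74_C_21. Its median ratio at 25 DPA was 0.52 on replicate 1, 1.03 on replicate 2 and -0.94 on replicate 3, and at 16 DPA it was 1.15, 1.27 and 0.91. The lowest correlation between any pair in the group was 0.62 and the median 0.88. The linking used these same arrays, so the likeness of the 10 probes is a description of how they were grouped, and replicate 3 of 25 DPA was below -0.5 in each of them. Whether these clones come from one gene or from several was not known here, so they may share a target.

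**Figure D5:**
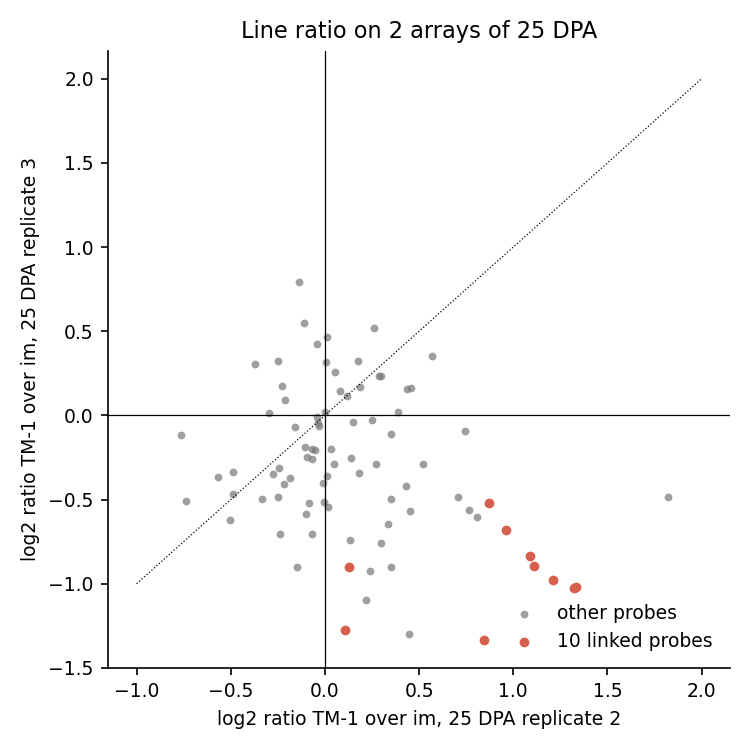
Log2 ratio of TM-1 over im on replicate 2 (horizontal axis) and replicate 3 (vertical axis) of 25 DPA for the probes measured on both; the dotted line marks equal ratios. The 10 linked probes lie between 0.11 and 1.33 on replicate 2 and between -1.33 and -0.52 on replicate 3.

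The 95 probes were spread over the array. They came from 58 of the 76 clone plates, with at most 4 from a plate, and from 42 of the 48 print blocks, with at most 4 in a block. Blocks 25 to 48 held 60.0% of the 95 and 52.8% of the 12092 probes. Only 2 pairs of the 95 lay on neighboring spots. Between 13761 and 19272 cDNA probes were measured per array, and 89 to 95 of the 95. At most 3 of the 95 were saturated on an array, and on replicate 2 of 25 DPA 22 of them carried a negative quality flag, against 0 to 7 on each other array.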

How the data were processed

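Per the file headers, the authors' array files hold spot and background intensities of 30000 spots in Cy5 and Cy3, and 816 control spots were left out here. The deposited value table holds the authors' log2 ratio of Cy5 over Cy3, which was turned to TM-1 over *im* by the source names and selected the probes; the methods describe removal of spots under 400 units, LOWESS within arrays and Aquantile across them, but not which steps this table had, and it still lists faint spots. Per the submitters' processing notes, the tools were R 2.12.2 and limma 3.4.5. Mean levels came from background-subtracted medians, raised to at least 50 units, with spots under 400 units in both dyes left out, then loess and Aquantile normalization. They were fitted in limma 3.58.1 (R 4.3.3) with 1 coefficient per stage over 15 arrays, and calls had an adjusted p under 0.05. In data simulated for 13 against 16 DPA with 16216 probes, a log2 change of 1 was recovered in 13% and a change of 2 in 61% of the altered probes, with 2 other calls.

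Probes named are the 8 with the highest ratio at 16 DPA, the 6 brightest, those that rose or fell from 13 to 16 DPA (none passed) and the 3 on each side of the threshold. Others were chosen after their values were seen. The probes and the tests were chosen with earlier results of these data known. No table here pairs the clones with genes or sequences, so no gene names, annotation lists or sequences are given. The number of arrays, 3 per stage, limits the precision. Alternatives changed the normalization, filters, dye assignment, replicates and selection limits.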

Additional observations from a re-analysis of the deposited data

How the results depend on the processing

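The number of selected probes depended on the limits of the rule. It was 257 with a threshold of 0.8 at 16 DPA and 8 with 1.5, and 25 with a limit of 0.3 at the other stages and 232 with 0.7. With the dye labels as written and no array turned, 13 probes were selected, 3 of them among the 95, and the median ratio of the 95 at 16 DPA was 0.34. With the material labels 52 other probes were selected, 0 of them among the 95, and the median ratio was -1.13. The remaining settings gave 69 to 104 probes, of which 47 to 54 were among the 95 when a replicate was left out and 79 to 89 otherwise, and the median ratio moved by less than the SD of 0.16 between arrays. The ratio of 384P68_H_20 at 16 DPA was -0.22 to 2.07 when each replicate was left out, and -0.22 where spots with either dye faint were left out.

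The number of the 95 probes with a changed mean level was 14 from 16 to 19 DPA, and 0 to 18 when each replicate was left out in turn. It was 33 from 13 to 19 DPA, with 11 to 24 when each replicate was left out, and 4 from 19 to 22 DPA, with 0 to 4. The 18 probes of 16 to 19 DPA were 12 risers and 6 fallers. Over all probes the calls from 16 to 19 and from 13 to 19 DPA changed with the replicates as well, as given above. With 19 DPA represented by replicate 3 alone the numbers were 1, 10 and 0. With the arrays centred on the probes measured on all arrays, 4 passed from 13 to 16 DPA and 50 from 13 to 19 DPA. Over all probes 63 rose and 52 fell in the first interval, and 1848 rose and 1281 fell in the second. The arrays of a stage limit what can be called, and the causes of these differences were not tested.

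With the replicate number as a block, 12 of the 95 passed from 16 to 19 DPA, 29 from 13 to 19 DPA, 4 from 19 to 22 DPA and 0 in the other intervals, so no count moved by over 1.5 times. The numbers were not found to pair the arrays, since only 2, 0 and 4 of the 10 correlations between same-numbered arrays were over 0.1 for replicates 1, 2 and 3.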
